A study of Homo sapiens with 9 samples.

Results

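Genes that encode voltage-gated and potassium ion channels were compared over 3 stable HEK293 lines, each of which expressed 1 form of HA-tagged MEK1: WT, F53S or K57N. They were taken by name alone, as the probes whose annotated gene symbol began with KCN and a further letter, was an SCN symbol of a sodium channel alpha subunit, or began with CACNA, CACNB or CACNG. The rule found 197 of the 50598 probes on the array and 139 of the 38779 genes, of which 95 belonged to potassium channels, 10 to sodium channels and 26 to calcium channels. The other 8 were antisense or other transcripts named after a channel gene.

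The study asked how a mutant of MEK1 found in RASopathies (F53S) and one found in cancer (K57N) change gene expression in a common background. HEK293 is a line of human embryonic kidney cells that carries several transcripts of early neurons, and each of the 3 lines here was made from it by transfection of an HA-MEK1 plasmid and selection with puromycin. RNA was taken at steady state, without added stimulus, in 3 experiments per line, and each was read on 1 Agilent array with a single dye. Each MEK1 form was represented by a single stable line, so the mutation and other differences between the lines cannot be told apart, and p measures the spread between experiments. A difference in RNA per cell and a difference in the number of cells that express a gene cannot be told apart in such bulk RNA.

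Voltage-gated channels open when the membrane depolarizes. Sodium and calcium channels carry the inward current of an action potential and calcium entry, and most potassium channels carry outward current that brings the membrane back to rest. Potassium channels of the KCNJ (inward rectifier) and KCNK (leak) families set the resting potential, and channels of the KCNM and KCNN families open when calcium rises in the cell. Pore subunits are accompanied by accessory subunits that change their trafficking and gating, such as the alpha2delta, beta and gamma subunits of calcium channels.

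Signal was given as the log2 of the scanner software's processed signal less the 75th percentile of its array, so that 0 is the level of that percentile, and a difference of 1 is a 2-fold difference. A probe's level was not compared with that of another probe. The 3 arrays of replicate 1 were on slide 1 and the other 6 on slide 2, and slide 1 was dimmer: the 75th percentile of its arrays was 245 to 376 intensity units against 695 to 821 on slide 2, and the lowest log2 level that counted as well above background was -4.42 to -3.76 on slide 1 and -5.58 to -4.92 on slide 2. Each comparison was therefore made both without and with the slide as a term in the fit. MAP2K1, the gene of MEK1, had mean levels of 2.37, 2.45 and 2.85 in WT, F53S and K57N cells. DUSP6, a phosphatase gene induced by ERK, had mean levels of -2.35 ± 0.87 in WT cells, 0.55 ± 0.08 in F53S cells and 3.98 ± 0.10 in K57N cells (SD, n = 3 each). Of 7 genes usually expressed in HEK293 cells, KRT8, KRT18, VIM, NEFL, PAX2 and LIN28B were well above background on all 9 arrays and NEFM on 2 of 3 arrays of each line. Of 8 genes that mark other cell types, ALB and DCN were not well above background on any array, whereas PTPRC, CDH5 and COL1A1 were above it on all 9, COL1A1 with means of -0.18, -0.40 and -1.38 in the order WT, F53S, K57N. PECAM1 was above background on 2 K57N arrays only, GFAP on 1 K57N array only and MYH7 on 2 WT arrays and 1 F53S array, and the part of such transcripts in the channel signals was not tested.

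Less than 50% of the channel genes gave enough signal to be tested. A gene was tested if a line had a probe well above background on each of its 3 arrays, which held for 61 of the 139 genes (43.9%) and for 49.7% of all genes. These were 39 potassium, 4 sodium and 14 calcium channel genes and 4 antisense or other transcripts. A further 31 genes were above background on some arrays only, and 47 genes had no probe above it on any array. The share tested was highest among the alpha2delta and beta subunits of calcium channels, 3 of 4 genes each, and lowest among the inward rectifiers, 5 of 16. The number of channel probes well above background was 63 to 86 per array in WT cells, 59 to 95 in F53S cells and 80 to 84 in K57N cells.

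**Figure D1:**
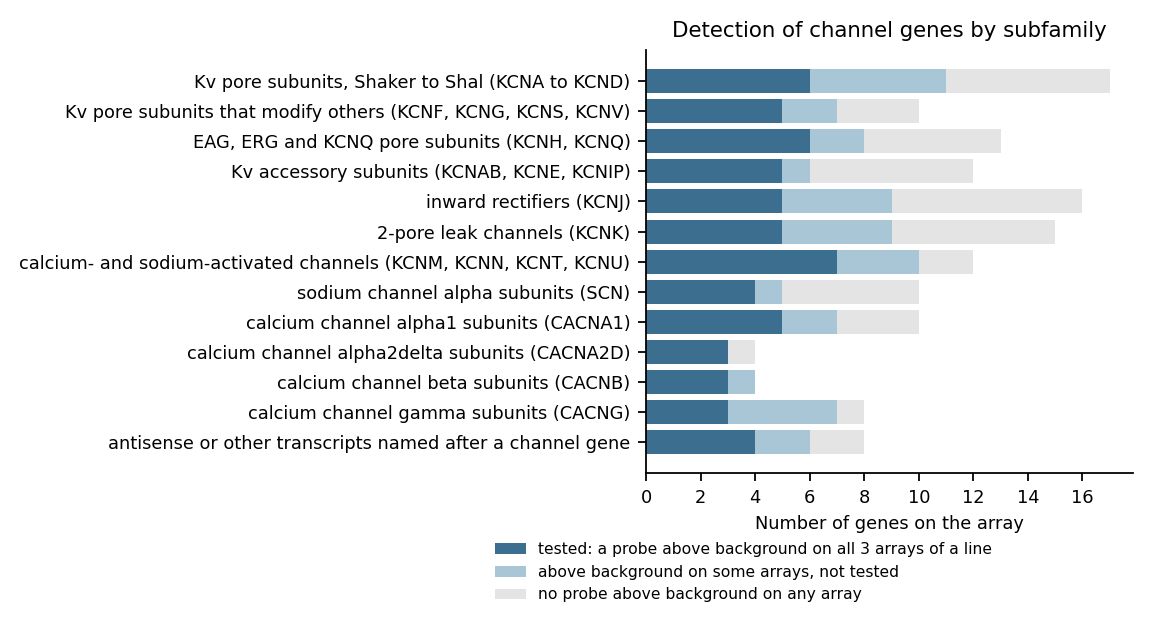
Number of genes on the array in each channel subfamily (x axis), split into genes that were tested (dark), genes above background on some arrays only (light blue) and genes with no probe well above background on any of the 9 arrays (grey). Of the 139 genes, 61 were tested and 47 gave no signal on any array.

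Between K57N and WT cells, 5 of the 61 tested channel genes passed an adjusted p below 0.05 and a 2-fold limit by limma (8.2%), against 2.26% of all 19280 genes tested. KCNK1 and KCNF1 were higher, against 1.52% of all genes, and SCN9A, KCNJ2 and CACNA2D3 were lower, against 0.742%. With the slide as a term, 12 channel genes passed (19.7%), against 4.54% of all genes. They included the same 5, with KCNK6, KCNK12, KCNMA1, KCNN3 and CACNG7 higher and KCNH2 lower. By direction, 2.57% of all genes were then higher and 1.97% lower. The replicate number as a block in place of the slide gave the same 12 genes. Of the 61 genes, 11 entered the test through K57N cells alone, being above background on all 3 arrays only there. For 5 of these no WT array was above background and for 6 some were. The 5, KCNF1, KCNMA1, CACNG7, KCNN3 and KCNK6, are all among the 7 genes called higher with the slide term. Their p-values rest on WT values below background. Since the filter on background favours genes that are higher in K57N cells, the shares are not evidence of an excess of channel genes. Over the 42 channel genes that were above background on all 9 arrays, 3 passed without the slide term (7.14%, against 1.66% of 17064 genes) and 5 with it (11.9%, against 3.37%). Over the 61 genes, the median log2 difference between K57N and WT cells was -0.11, near the -0.06 of all genes. It was 0.05 for potassium channel genes, -0.26 for calcium channel genes and -0.83 for the 4 sodium channel genes.

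**Figure D2:**
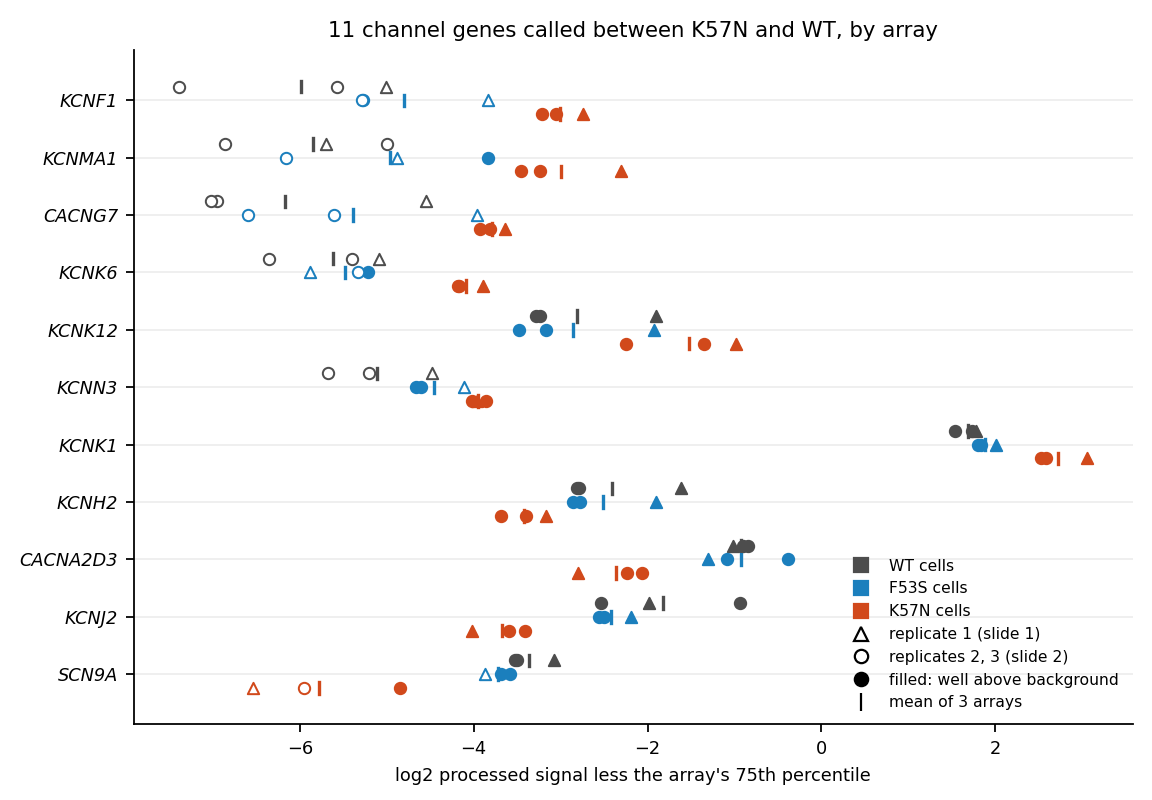
log2 processed signal less the array's 75th percentile (x axis) of 11 channel genes called between K57N and WT cells with the slide as a term, with 1 symbol per array and a tick at the mean of the 3 arrays. Triangles are slide 1, circles slide 2, and open symbols are not well above background; levels are comparable within a gene only. The K57N arrays lie apart from the WT arrays for 10 of these 11 genes, all but KCNK12.

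The leak channels of the KCNK family, whose subunits each hold a pair of pore domains, were the subfamily with the highest median difference. The 5 tested genes of 15 had a median log2 difference of 1.04 between K57N and WT cells, and 0.92 without KCNK6, which entered the test only through K57N cells. KCNK1, which encodes a weakly conducting leak channel of kidney and brain (probe at hg19 chr1:233807558-233807617, plus strand), had levels of 1.78, 1.74 and 1.53 in WT cells, 2.0, 1.80 and 1.83 in F53S cells and 3.06, 2.52 and 2.59 in K57N cells. Every K57N array was above every array of the other lines. The log2 difference between K57N and WT cells was 1.04 ± 0.19 (SE, n = 3 against 3, limma adjusted p = 0.027, 0.00093 with the slide term), just above the 2-fold limit. On slide 2 alone it was 0.92, below that limit. Without the slide term the call held in 1 of the 9 fits without 1 array, that without F53S replicate 1, the adjusted p reaching 0.13.

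KCNK5, the gene of an alkaline-activated leak channel of kidney tubules, had levels of 0.97, 0.91 and 0.68 in WT cells and 1.96, 1.54 and 1.47 in K57N cells. The groups did not overlap, but the log2 difference of 0.80 ± 0.19 was under 2-fold (adjusted p = 0.069, 0.0024 with the slide term). KCNK12, of the halothane-inhibited branch of the family, had levels of -1.90, -3.29 and -3.24 in WT cells, -1.92, -3.48 and -3.17 in F53S cells and -0.99, -2.25 and -1.35 in K57N cells. Its K57N and WT arrays overlapped, because the slide 1 arrays were the highest of each line, and on each slide the K57N arrays were above the others. The difference of 1.28 ± 0.54 did not pass without the slide term (adjusted p = 0.35) and passed with it (SE 0.24, adjusted p = 0.011).

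KCNK6, which is closely related to KCNK1, was above background on none of the WT arrays, on 1 F53S array and on all 3 K57N arrays. Its levels were -5.10, -6.36 and -5.41 in WT cells and -3.89, -4.18 and -4.17 in K57N cells. Since the WT values are only bounds, the gene was at least 1.58-fold higher in K57N cells (fitted log2 difference 1.54 ± 0.33, adjusted p = 0.056, 0.016 with the slide term). KCNK15, which is not known to carry current on its own, was bright in all lines and its difference was 0.01 ± 0.48 (adjusted p = 0.998).

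KCNF1 was called higher in K57N cells in both fits. It encodes an electrically silent subunit that joins KCNB channels and changes their gating. The probe (hg19 chr2:11054073-11054132, plus strand) gave -5.00, -7.39 and -5.57 in WT cells, -3.83, -5.28 and -5.29 in F53S cells and -2.74, -3.22 and -3.05 in K57N cells. Only the K57N arrays were above background, so the gene entered the test through K57N cells alone. All 3 of them were above every other array. In K57N cells the gene was at least 3.34-fold higher than in WT cells (fitted log2 difference 2.99 ± 0.62, adjusted p = 0.048, 0.0042 with the slide term). Without the slide term the call held in 2 of the 9 fits without 1 array, the adjusted p reaching 0.16, and with normexp background correction the difference was 0.81 and did not pass. The other tested subunits of this modifying kind, KCNG1, KCNG3, KCNG4 and KCNS3, had differences between -0.51 and 0.53, none called.

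KCNMA1, the pore of the large-conductance potassium channel that opens with both calcium and depolarization, was called higher with the slide term. Its probe (hg19 chr10:78644767-78644826, minus strand) gave -5.70, -6.86 and -5.00 in WT cells, -4.89, -3.83 and -6.16 in F53S cells and -2.31, -3.45 and -3.24 in K57N cells. No WT array and 1 F53S array were above background, and the K57N arrays were the highest. In K57N cells the gene was at least 3.34-fold higher than in WT cells (fitted difference 2.85 ± 0.66, adjusted p = 0.069, 0.022 with the slide term). The call with the slide term was lost without WT replicate 1 or 2 or any 1 K57N replicate, the adjusted p reaching 0.11. Of 4 other KCNMA1 probes none could be tested, and the only one above background on any array was so on 2 K57N arrays, at -4.64 and -4.60.

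The sequence just before the annotated start is shown for both genes, since each was called higher in K57N cells and held one of the motifs searched, which belong to factors that act in growth factor responses. The sequences are from RefSeq (GRCh38.p14), 250 bases before the start, 5′ to 3′ on the gene's strand, in lower case with motifs in capitals: TGACGTCA, the cyclic AMP response element, and TGANTCA, the AP-1 site, searched on both strands and not overlapping each other.
KCNF1, chr2:10911684-10911933, plus strand: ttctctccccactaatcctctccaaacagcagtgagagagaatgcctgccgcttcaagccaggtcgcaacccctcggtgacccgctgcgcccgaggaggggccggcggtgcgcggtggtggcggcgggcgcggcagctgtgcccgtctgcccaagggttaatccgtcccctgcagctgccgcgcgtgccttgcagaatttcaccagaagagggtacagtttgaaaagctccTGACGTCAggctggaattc
KCNMA1, chr10:77350762-77351011, minus strand, second of 2 annotated starts: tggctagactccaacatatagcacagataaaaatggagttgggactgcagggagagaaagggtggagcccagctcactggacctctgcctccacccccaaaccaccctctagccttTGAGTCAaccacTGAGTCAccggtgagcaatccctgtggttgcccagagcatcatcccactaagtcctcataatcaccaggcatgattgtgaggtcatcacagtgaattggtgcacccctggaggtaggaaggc
The first annotated KCNMA1 start held none of the motifs searched, nor did that of KCNK1, which was called higher in both fits. KCNN3, called higher with the slide term, held TGANTCA and is not shown. The KCNF1 element began 19 bases before the start, and the KCNMA1 pair began 134 and 122 bases before it. Over 300 bases around the start, TGACGTCA was found in 1.85% and TGANTCA in 7.71% of 35116 RefSeq promoters. Of the 43 tested genes with a promoter in that table, 1 held TGACGTCA (KCNF1) and 6 held TGANTCA (KCNA3, KCNIP2-AS1, KCNIP4, KCNMA1, KCNMB3 and KCNN3). The ETS motif CCGGAAG was in KCND3 alone of these 43, against 10.3% of all promoters, and the EGR motif GCGTGGGCG was in 0, against 0.794%. A gene counted if any of its promoters held the motif, whereas the percentages are of single promoters, so counts and percentages are not directly comparable. A match describes the letters only, and binding was not measured.

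Among other calcium-activated channels, KCNN3, a small-conductance channel of neurons, was above background on no WT array, on 2 F53S arrays and on all 3 K57N arrays. Its levels were -4.48, -5.67 and -5.20 in WT cells, -4.11, -4.67 and -4.60 in F53S cells and -3.97, -4.02 and -3.85 in K57N cells. In K57N cells the gene was at least 1.74-fold higher than in WT cells (fitted difference 1.17 ± 0.30, adjusted p = 0.099, 0.0094 with the slide term). The beta subunits KCNMB1, KCNMB3 and KCNMB4, which are partners of KCNMA1, had differences of -0.45, -0.08 and -0.24, and none passed with or without the slide term.

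Of the 5 tested inward rectifiers, KCNJ2 was called lower in K57N cells. KCNJ2, the inward rectifier that holds the resting potential of heart and skeletal muscle (hg19 chr17:68176016-68176075, plus strand), gave -1.98, -2.53 and -0.94 in WT cells, -2.19, -2.50 and -2.56 in F53S cells and -4.02, -3.41 and -3.59 in K57N cells. The K57N arrays were below all others, and WT replicate 3 stood above the other WT arrays. The log2 difference was -1.86 ± 0.38 (adjusted p = 0.045, 0.014 with the slide term). Without WT replicate 3 it was -1.42 (adjusted p = 0.072), and -1.40 with the slide term (adjusted p = 0.019). Without the slide term the call held without WT replicate 2 and in none of the other 8 fits without 1 array, and with normexp background correction the difference was -1.12 (adjusted p = 0.23).

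KCNJ8, the pore of the ATP-sensitive channel of vascular muscle, had levels of 0.44, 0.20 and 0.15 in WT cells, 0.48, -0.09 and -0.07 in F53S cells and -0.52, -0.73 and -0.61 in K57N cells. The K57N arrays were again below all others, with a difference of -0.89 ± 0.20 that was under 2-fold (adjusted p = 0.061, 0.0018 with the slide term). KCNJ12, KCNJ14 and KCNJ18 had differences of 0.09, 0.05 and 0.11, and KCNJ12 and KCNJ18 are near-identical copies whose signals cannot be told apart.

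KCNH2, the ERG channel of cardiac repolarization, gave -1.62, -2.79 and -2.81 in WT cells, -1.90, -2.86 and -2.78 in F53S cells and -3.17, -3.69 and -3.40 in K57N cells. The difference was -1.01 ± 0.38 (adjusted p = 0.28, and 0.0070 with the slide term, SE 0.17). A second KCNH2 probe had a difference of -0.66 and did not pass (adjusted p = 0.056 with the slide term). The KCNQ genes, which carry slow currents that limit repeated firing, included no call, and KCNQ1, KCNQ3 and KCNQ5 had differences of -0.45, -0.22 and -0.57.

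The voltage-gated pores of the KCNA to KCND families included no call between K57N and WT cells. KCNA6, a delayed rectifier subunit of neurons, came nearest, with levels of -1.35, -2.10 and -1.89 in WT cells, -1.76, -1.91 and -2.16 in F53S cells and -0.69, -1.03 and -0.92 in K57N cells. The K57N arrays were above all others, and the difference of 0.90 ± 0.23 was under 2-fold (adjusted p = 0.095, 0.0035 with the slide term). A second KCNA6 probe gave 0.88. KCNA3, the channel of T cells, had a fitted difference of 1.39 ± 0.76 with overlapping arrays (adjusted p = 0.53, 0.10 with the slide term), and only 1 of its WT arrays was above background. Among accessory subunits, KCNE1L, now named KCNE5, had levels of -4.75, -5.03 and -4.75 in WT cells and -4.17, -3.55 and -4.06 in K57N cells. Its difference of 0.92 ± 0.23 was under 2-fold (adjusted p = 0.087, 0.021 with the slide term), and 2 of 3 WT arrays were above background.

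Among sodium channel alpha subunits, SCN9A was called lower in K57N cells in both fits. SCN9A, the channel of pain-sensing neurons (hg19 chr2:167055558-167055617, minus strand), gave -3.07, -3.51 and -3.52 in WT cells, -3.88, -3.59 and -3.69 in F53S cells and -6.54, -4.85 and -5.95 in K57N cells. The K57N arrays were below all others. The gene entered the test through WT cells alone, being above background on all 3 arrays there, on 2 in F53S cells and on 1 in K57N cells, a filter that favours lower values in K57N cells. The fitted log2 difference was -2.41 ± 0.38 (adjusted p = 0.016, 0.0045 with the slide term). With each K57N array below background set to the lowest signal well above background on that array, the difference was -1.42, or at least 2.68-fold lower. Without the slide term the call was lost without any 1 WT replicate or K57N replicate 3, the adjusted p reaching 0.080, and with normexp background correction the difference was -0.76 (adjusted p = 0.42). The call with the slide term was kept without any 1 array, with fitted differences between -2.86 and -2.0. The second SCN9A probe was above background on 2 arrays in all and could not be tested. The 250 bases before the SCN9A start are shown as those of a gene called lower in both fits, and they held none of these motifs.
SCN9A, GRCh38.p14 chr2:166375945-166376194, minus strand: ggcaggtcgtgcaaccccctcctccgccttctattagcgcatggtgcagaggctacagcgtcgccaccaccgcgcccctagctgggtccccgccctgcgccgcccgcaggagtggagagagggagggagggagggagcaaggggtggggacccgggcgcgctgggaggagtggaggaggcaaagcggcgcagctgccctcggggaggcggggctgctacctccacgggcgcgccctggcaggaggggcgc

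SCN8A, the channel of the axon initial segment, had a difference of -0.65 ± 0.17, under 2-fold, with no overlap of the arrays (adjusted p = 0.10, 0.0060 with the slide term). SCN3A, which is most active in the embryonic brain, had a difference of 0.28 ± 1.11, and its SE was set by the slides: the levels on slide 1 were -1.56, -1.13 and -1.87 in WT, F53S and K57N cells, and those on slide 2 were between -4.50 and -3.62. Within the slides the difference was -0.31 on slide 1 and 0.58 on slide 2. The sign for SCN3A also turned without some arrays.

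Among calcium channel genes, CACNA2D3 was the only one called in both fits. It encodes an alpha2delta subunit, which brings channels to the cell surface (hg19 chr3:54913050-54913109, plus strand), and gave -1.02, -0.90 and -0.85 in WT cells, -1.31, -1.08 and -0.38 in F53S cells and -2.80, -2.07 and -2.23 in K57N cells. The K57N arrays were below all others. The log2 difference was -1.44 ± 0.28 (adjusted p = 0.037, 0.0028 with the slide term). Without the slide term the call held in 2 of the 9 fits without 1 array, the adjusted p reaching 0.15. It was lost with normexp background correction and with quantile normalization. A second probe gave -0.92, in the same direction and under 2-fold (adjusted p = 0.079, 0.010 with the slide term). The other alpha2delta genes, CACNA2D1 and CACNA2D2, had differences of -0.12 and -0.35 that did not pass.

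CACNG7, a gamma subunit better known as a partner of AMPA-type glutamate receptors, was above background only in K57N cells. It gave -4.55, -6.95 and -7.02 in WT cells, -3.96, -5.61 and -6.60 in F53S cells and -3.64, -3.93 and -3.81 in K57N cells. In K57N cells the gene was at least 1.93-fold higher than in WT cells (fitted difference 2.38 ± 0.79, adjusted p = 0.20, 0.012 with the slide term). The second CACNG7 probe was above background on no array.

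Of the 5 tested pore subunits of calcium channels, all had differences below 0. CACNA1G, a low-voltage-activated channel, had the largest, with levels of -0.87, -1.60 and -1.72 in WT cells, -1.33, -1.71 and -1.98 in F53S cells and -2.23, -2.40 and -2.40 in K57N cells. The arrays of the K57N and WT cells did not overlap, and the difference of -0.95 ± 0.26 was just under 2-fold (adjusted p = 0.13, 0.0047 with the slide term). Its neighbours in kind, CACNA1H and CACNA1I, had differences of -0.02 and -0.19, and the high-voltage-activated CACNA1B and CACNA1C had -0.55 and -0.28. None of these 4 passed. Of the beta subunits, which help the pore reach the membrane, CACNB3 had a difference of -0.70, under 2-fold (SE 0.37, adjusted p = 0.51, 0.036 with the slide term) and CACNB2 and CACNB1 had differences of -0.24 and 0.09. A second CACNB2 probe, above background on no K57N array, was at least 1.99-fold lower there and did not pass (adjusted p = 0.28).

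**Figure D3:**
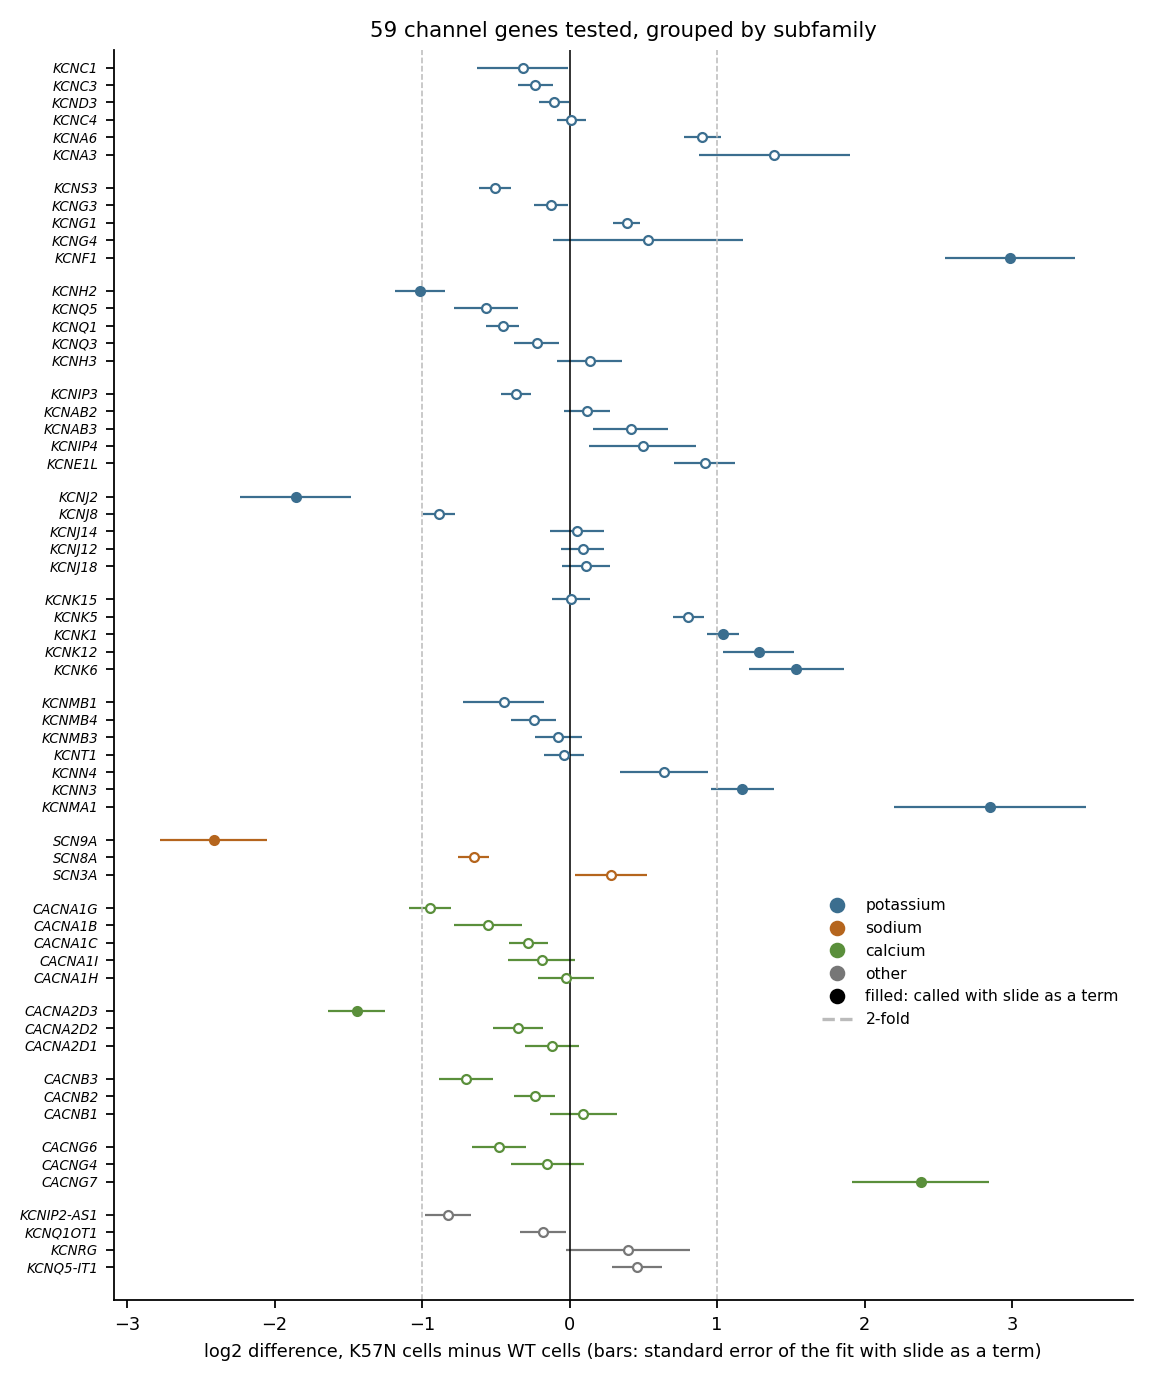
log2 difference between K57N and WT cells (x axis) for 59 tested channel genes (rows, grouped by subfamily), with the SE of the fit with the slide as a term, n = 3 arrays against 3. Filled points passed an adjusted p below 0.05 and 2-fold in that fit. The 3 called leak channel genes lie right of 0, and SCN9A left of it.

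In all, 14 genes had more than 1 tested probe, and for 13 of them the probes had the same sign between K57N and WT cells. The exception was KCNMB3, of which neither probe passed. With the slide term and no limit on the fold, 24 of the 61 channel genes had an adjusted p below 0.05, 11 higher, against 8.56% of all genes, and 13 lower, against 10.8%. Single arrays of the K57N and WT lines did not overlap for 9 higher genes, against 10.2% of all genes, and for 13 lower genes, against 12.6% of all genes. The 12 genes called with the slide term, a fit that favours genes alike on both slides, had the same direction on both.

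Between F53S and WT cells no channel gene was called, with or without the slide term, nor was any of the 19280 genes tested (0.0%). DUSP6 was among the genes not called, although each of its F53S arrays was above each WT array. Its log2 difference was 2.90 ± 0.37 (limma adjusted p = 0.35, 0.084 with the slide term). Since so large a difference did not pass, the lack of calls does not show that channel genes were unchanged in F53S cells. The paper reports genes that differ between F53S and WT cells. The WT arrays are those of the comparison with K57N cells. Without adjustment, 1 channel gene had p below 0.05 by limma, against 0.902% of all genes, and 3 had it with the slide term, against 4.09%. None of them passed 2-fold together with that p in the fit without the slide. With it KCNF1 alone did, a gene above background in neither line. The methods' t-test gave 0 with adjustment, against 0.0% of all genes, and 0 without it, against 0.13% higher and 0.0% lower. The median log2 difference was 0.03 over the channel genes and 0.01 over all genes. KCNF1 and CACNG7 were above background on no array of either line and KCNMA1 on 1 F53S array, so no difference is given for them. KCNN3, above background on no WT array and on 2 F53S arrays, did not pass the test, and no difference is given for it either. KCNAB3, a beta subunit of voltage-gated channels, had a difference of 0.34 ± 0.27. The lowest fitted differences were those of KCNJ2 (-0.60 ± 0.38), the antisense transcript KCNIP2-AS1 (-0.55 ± 0.23), the presynaptic calcium channel CACNA1B (-0.46 ± 0.29), SCN9A (-0.35 ± 0.38) and KCNQ5 (-0.34 ± 0.24). The F53S and WT arrays did not overlap for KCNK1 (higher, against 1.54% of all genes) and SCN9A (lower, against 1.63%), with log2 differences of 0.20 and -0.35.

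Between K57N and F53S cells, SCN9A alone was called without the slide term (fitted difference -2.06 ± 0.38, and -1.11 with arrays below background at that lowest signal, adjusted p = 0.046), against 1.21% of all genes (0.249% in that direction). No channel gene was called higher, against 0.96% of all genes, although 5 had an unadjusted p below 0.05 and 2-fold by limma, against 2.0% of all genes. The methods' t-test gave 0 after adjustment, against 0.124%, and 3 before it, against 1.74%. With the slide term, 4 were higher (KCNA6, KCNF1, KCNK6 and KCNK12) and 3 lower (CACNA2D3 and SCN9A among them), against 3.0% of all genes (1.89% higher and 1.11% lower). KCNF1 and KCNK6 entered the test through K57N cells alone, with no F53S array above background for KCNF1 and 1 for KCNK6. The single arrays did not overlap for 10 higher channel genes, against 8.31% of all genes, and 12 lower ones, against 10.3%. KCNA6 was called here and not against WT cells, with log2 differences of 1.07 and 0.90 on either side of 2-fold, and the difference between these was not tested. The K57N arrays are the same in both comparisons.

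The genes that regulate or complement these channels were described by a list of 81 from general knowledge, of which 60 were tested. Between K57N and WT cells 3 passed, all higher, against 1.52% of all genes. One of them, LRRC38, entered the test through K57N cells alone. The median log2 difference over the 60 was -0.19. GEM, a small GTPase that binds beta subunits and lowers calcium current, had levels of -1.85, -2.07 and -1.80 in WT cells, -1.48, -1.77 and -1.69 in F53S cells and 0.43, -0.40 and -0.41 in K57N cells. The difference was 1.78 ± 0.25 (adjusted p = 0.0087), and that between K57N and F53S cells was 1.52 (adjusted p = 0.029). SGK1, a kinase that raises the surface level of several channels, rose by 1.23 ± 0.21 on the log2 scale (adjusted p = 0.022). LRRC38, an auxiliary subunit of the KCNMA1 channel, was above background in K57N cells only and was at least 1.37-fold higher than in WT cells (fitted difference 1.70 ± 0.31, adjusted p = 0.028). With the slide term these 3 passed and FGF11, a binding partner of sodium channels, was lower, with a difference of -1.12 (adjusted p = 0.022). The sodium-calcium exchanger SLC8A1 fell by 0.93 on the log2 scale, under 2-fold (adjusted p = 0.040). None of the 9 tested genes of calcium store release and entry, the 6 scaffold genes or the 2 repressors of neuronal channel genes passed. Between F53S and WT cells 0 of the 60 passed in either fit, a comparison in which DUSP6 did not pass either.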

How the data were processed

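The authors deposited, per the file headers, the intensity of each spot on 9 Agilent arrays as processed by Feature Extraction 10.10.1.1 (background subtracted, spatial trend corrected, positions on hg19), and a table of log2 values that equals the log2 processed signal less a constant per array within 0.05 for 99.7% to 99.9% of probes. The log2 table was used as an alternative. Each array was scaled to its 75th percentile over spots other than controls, 278 to 501 spots per array marked as uneven or outlying were left out, and repeated spots were averaged. limma 3.58.1 in R 4.3.3 fitted 1 mean per line on 25400 probes, with p adjusted over all of them by Benjamini-Hochberg. A gene was its tested probe with the highest mean. For a gene below background on every array of a line, the dim level on each array was the higher of the lowest signal well above background and its own.

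The channel genes, the list of related genes and the tests were chosen with earlier results of these data known. Named genes are those called in any comparison, the 5 largest rises and falls against WT cells, genes whose probes disagree and up to 5 genes per ion with the smallest p. The files of slide 1 and slide 2 carry older and newer gene names, and a name in either counted. Deviations from the line means correlated with r of 0.35 to 0.88 for arrays of the same replicate number. Arrays of different numbers were not compared and the slides add to these values, so they cannot show whether the numbers pair the arrays. The fits were tested on simulated data. Number of arrays and background limit the precision. How the authors normalized between arrays is not given in the sources used here. Some genes counted in the totals are not reported here.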

Additional observations from a re-analysis of the deposited data

How the results depend on the processing

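Without the slide term, the channel genes called between K57N and WT cells (2 higher and 3 lower) numbered 7 and 5 with the slide or the replicate number as a block. With quantile normalization they numbered 3 and 2 (1.66% and 0.742% of all genes). They numbered 7 and 3 on slide 2 alone (2.41% and 1.57% of all genes), 1 and 0 with normexp background correction (0.752% and 0.233%), 0 and 0 without a filter on dim probes (0.364% and 0.0593%), 1 and 1 in a fit of genes above background on all 9 arrays (0.912% and 0.614%), and 0 and 1 in a fit of 2 lines (1.26% and 0.482%). The methods' t-test gave 0 and 0 adjusted (0.425% and 0.135% of all genes) and 6 and 4 unadjusted (2.29% and 1.62%), and limma without adjustment gave 7 and 5 (2.62% and 1.95%). Without 1 array the counts ranged from 0 to 4 higher (0.811% to 1.59% of all genes) and 0 to 2 lower (0.238% to 0.872%), and with the slide term from 5 to 7 (2.13% to 2.65%) and 2 to 6 (1.38% to 2.3%). Without that term, SCN9A kept its call in 5 of the 9 fits without 1 array, KCNF1 and CACNA2D3 in 2 and KCNK1 and KCNJ2 in 1, as KCNF1 did only without WT or F53S replicate 1 and CACNA2D3 only without F53S replicate 1 or 3. With that term, KCNF1, CACNA2D3, SCN9A and CACNG7 were called without any 1 array. KCNK12 lost its call without K57N replicate 3, KCNK6 without K57N replicate 1, KCNN3 without WT replicate 2, KCNK1 and KCNJ2 without WT or K57N replicate 1, and KCNH2 without WT replicate 1 or 2, F53S replicate 3 or K57N replicate 1. Between K57N and F53S cells (0 higher and 1 lower) the counts were 4 and 3 with either block (1.82% and 1.05% of all genes with the replicate block), 1 and 0 with quantile normalization (1.05% and 0.27%), 2 and 1 on slide 2 alone (1.69% and 0.839%), 3 and 4 with the unadjusted t-test (1.74% and 0.866%) and 5 and 4 with unadjusted limma (2.0% and 1.22%). The lower count was 0 with normexp, no filter, genes above background on all 9 arrays, the deposited log2 table, a fit of 2 lines or the adjusted t-test, against 0.0104% to 0.213% of all genes. Without 1 array these counts were 0 to 1 in each direction (0.346% to 0.891% of all genes higher and 0.041% to 0.225% lower), and 1 to 4 with the slide term (1.47% to 1.89% and 0.718% to 1.37%). The 3 related genes became 0 without a filter or with the adjusted t-test, 5 with unadjusted limma, 1 to 3 without 1 array, and 3 to 5 without 1 array and with the slide term. For SCN3A the difference of 0.28 became -0.21 without WT replicate 2 or 3, -0.40 without K57N replicate 1 and -0.0001 with the slide term and without K57N replicate 3, and was at most 1.26, without WT replicate 1. For SCN9A, F53S against WT became 0.028 with the slide term and without WT replicate 1. The cause was not tested. The replicate block changed no call that the slide term did not. No difference called between K57N cells and either other line changed direction. Signal over background limits KCNF1, KCNMA1, CACNG7, KCNN3 and KCNK6, whose WT levels are bounds, and SCN9A, above it on 1 K57N array: with normexp, KCNF1 differed by 0.81.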

Other observations

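Channel genes that were not tested over the 9 arrays gave some signal on single arrays. KCNJ4, an inward rectifier of brain and heart, had levels of -3.88, -3.85 and -4.14 in WT cells and -6.45, -5.61 and -4.93 in K57N cells, with no overlap. The levels of K57N replicates 1 and 2 and of WT replicate 1 were under the lowest signal well above background on their arrays. The size of the difference is therefore not known. KCNJ4 could be tested, and was called lower in K57N cells, on slide 2 alone and with the slide term and without F53S replicate 1. In both it entered the test through lines other than K57N, a filter that favours lower values in K57N cells. CACNA1D, a calcium channel of pacemaker cells, had levels of -2.11, -5.80 and -0.90 in F53S cells, -5.28, -5.91 and -5.49 in WT cells and -4.43, -5.36 and -6.96 in K57N cells, so that a pair of F53S arrays stood above the rest. It was called lower in K57N than in F53S cells with the slide term and without F53S replicate 2. There it entered the test through F53S cells alone, because the dim F53S array was left out. That filter favours lower values in K57N cells. In all, 44 untested channel probes were above background on some array.

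Some channel genes differed more between the slides than between the lines. The level on slide 1 was more than 2-fold above that on slide 2 in all 3 lines for 4 of the 61 tested channel genes (6.56%), against 5.12% of all genes tested, and more than 2-fold below it for 0, against 0.892%. The log2 differences between the slides in WT, F53S and K57N cells were 2.94, 3.12 and 2.05 for SCN3A. They were 1.23, 1.76 and 1.36 for CACNA1C, the calcium channel of heart muscle, and 1.16, 1.62 and 1.75 for KCNMB1, a beta subunit of the KCNMA1 channel.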
